A study of Canis lupus familiaris with 6 samples.

Results

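Platelet-derived growth factors (PDGF) and vascular endothelial growth factors (VEGF) form one family of secreted dimers that bind receptor tyrosine kinases on the cell surface. The ligands PDGFA, PDGFB, PDGFC and PDGFD act through the receptors PDGFRA and PDGFRB, which drive growth and migration of mesenchymal cells such as fibroblasts, pericytes and bone-forming cells. VEGFA acts on endothelial cells, the lining of blood vessels, through KDR and FLT1, VEGFB binds FLT1, and VEGFC acts mainly on lymphatic vessels through FLT4. The 10 genes described here are these 4 PDGF ligands, the 2 PDGF receptors, VEGFA, VEGFB, VEGFC and KDR. They were taken by name as every probe set annotated with that gene alone, which gave 14 of 42924 probe sets, and they are 10 of the 15115 named genes on the array. A probe set is a group of array probes read as 1 value, and the probe set with the highest mean over the arrays stood for its gene.

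The arrays held RNA of 6 primary lines grown from osteosarcomas, cancers of bone, of dogs. Of these, UWKOS1, UWKOS3 and UWKOS7 gave tumours in mice that received them (tumorigenic, n = 3), and UWKOS2, UWKOS6 and UWKOS8 gave none (non-tumorigenic, n = 3). All were cultured alike in minimum essential medium with 10% cosmic calf serum to about 70 to 80% confluency, with no drug or genetic change named, and RNA came from the cultures rather than from the mice. Each line was arrayed once, so p-values rest on the variation among lines, and the labels do not say whether each line came from a different dog.

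Values are on a log2 scale, where 1 unit is a doubling of signal, and a difference is the tumorigenic minus the non-tumorigenic mean. Array medians lay between 6.03 and 6.05. Probe sets were tested only where their mean over the 6 lines reached 6.07, the median of all probe sets, and lower values are not known to lie above background. The test was limma's moderated comparison with Benjamini-Hochberg adjustment, and a gene passed with an adjusted p under 0.05. Of the bone cell markers, COL1A1 lay between 12.28 and 13.51 and SPARC between 12.41 and 13.71 in the 6 lines, while ALPL, IBSP, DMP1 and PHEX averaged below 6.07. OMD, a proteoglycan of bone cells, was at 3.22 to 6.42 in the tumorigenic and at 9.58 to 9.97 in the non-tumorigenic lines, and fell by 4.53 (limma adjusted p = 0.0261). It thus moved with the groups as VEGFB did. Of 11 osteoblast markers on the array 6 reached the filter, and OMD alone of these passed, beside 12.1% of all tested genes. SPARC was also lower in all tumorigenic lines (-0.88, limma adjusted p = 0.0757). RUNX2, DLX5 and BGLAP, at or above the filter, overlapped between the groups (differences of 0.22, -0.61 and -0.44), as did COL1A1. The part of OMD in the results was not tested. SPP1 was at 9.76 in UWKOS1 and at most 3.30 elsewhere. The ratio of signal at the 3' and the 5' transcript end, averaged over 4 control pairs, was 1.71 in UWKOS6 and 1.79 in UWKOS8, against 0.98 to 1.26 in the other 4 lines (log2). A higher ratio means less signal from the 5' end. A further control pair, EF1A, was not in this mean and did not set UWKOS6 and UWKOS8 apart. It was at 8.68 and 8.02 there, and at 7.90 (UWKOS7) to 9.09 (UWKOS2) in the other lines.

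VEGFB lay below all non-tumorigenic values in each tumorigenic line, and it was the only one of the 8 members at or above the filter that passed. In UWKOS1, UWKOS3 and UWKOS7 it was at 9.08, 9.50 and 8.65, and in UWKOS2, UWKOS6 and UWKOS8 at 10.23, 10.82 and 10.55. The means were 9.08 ± 0.43 (SD, n = 3) and 10.54 ± 0.29 (SD, n = 3). It fell by 1.46 on the log2 scale (SE 0.27, limma adjusted p = 0.0275), which is 2.75-fold lower with a 95% interval of 1.75 to 4.33. Its other probe set gave 8.35, 8.49 and 8.29 in the tumorigenic lines against 9.03, 9.30 and 8.97, and fell by 0.72 (SE 0.17, limma adjusted p = 0.0418). The probe sets thus had the same direction, with the tumorigenic lines below the others on each. VEGFB is a ligand of FLT1 and of the co-receptor NRP1, known in mice for a part in heart muscle and fat metabolism more than in vessel growth.

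Among all tested genes 12.1% passed in either direction and 4.63% in the lower one (12.0% and 4.74% of tested probe sets), so 1 member of 8 was near the share of all genes. Without UWKOS1, UWKOS6 or UWKOS8, VEGFB did not pass (limma adjusted p = 0.0639, 0.109 and 0.0835), while the difference without any 1 line stayed between -1.67 and -1.25. In UWKOS2, whose mean transcript-end ratio of 1.05 lay within the tumorigenic range, VEGFB was at 10.23 and above all 3 tumorigenic lines. With that ratio as a covariate the difference was -1.35 and did not pass (limma adjusted p = 0.2), where 12 of 9145 genes passed in all.

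**Figure D1:**
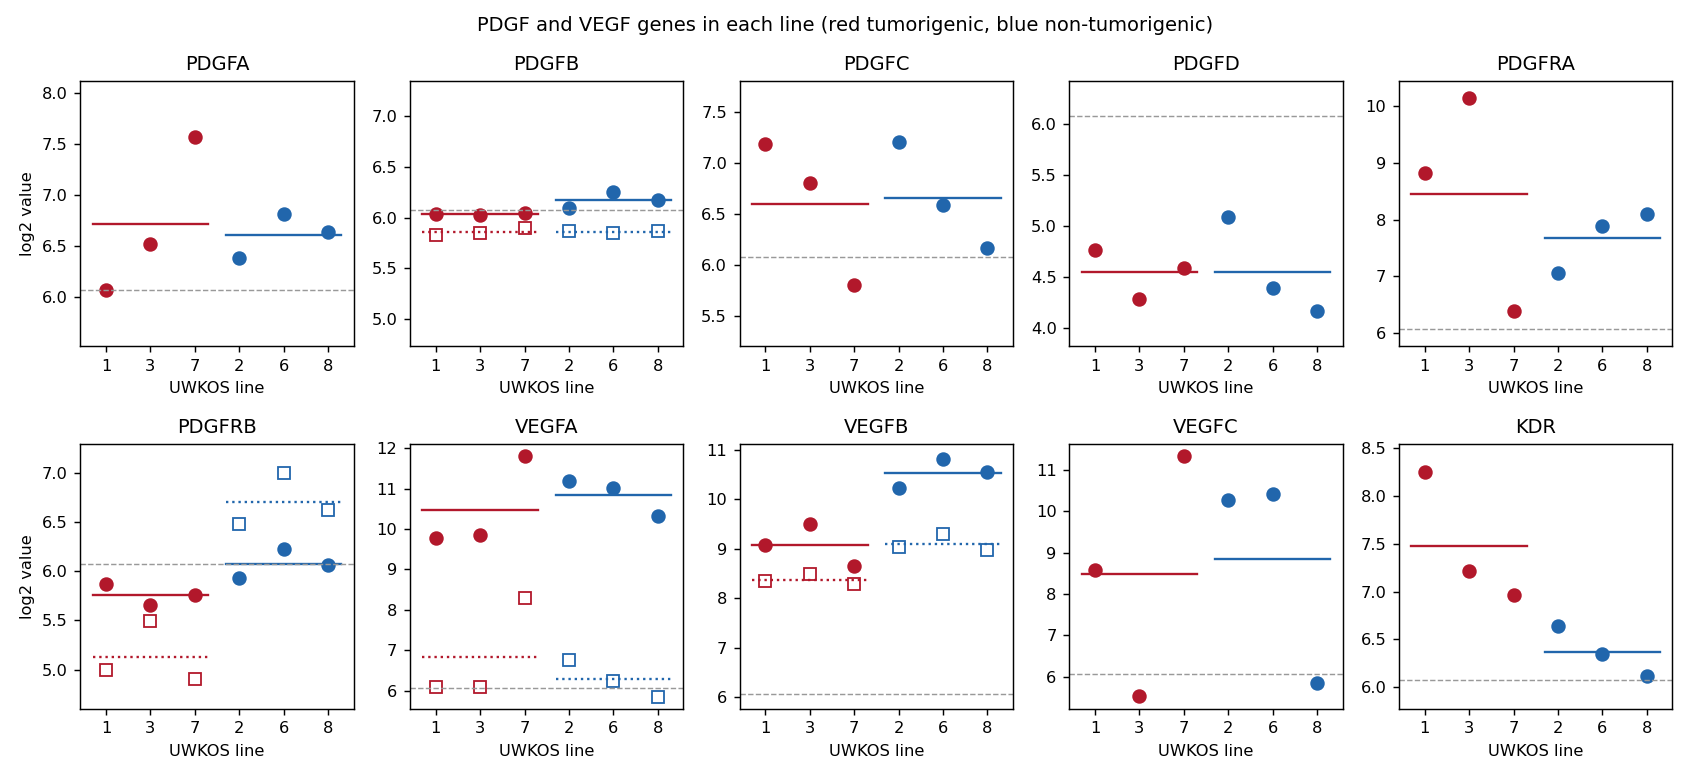
Log2 value of each of the 10 genes (panels) in each line (horizontal axis), tumorigenic lines in red and non-tumorigenic lines in blue. Filled circles are the probe set that stands for the gene with its group means as solid lines, open squares the other probe set with dotted means, and the dashed grey line is the filter at 6.07. The red points lie below the blue ones for VEGFB and above them for KDR, while VEGFC ranges from 5.53 to 11.33.

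KDR, the main signalling receptor for VEGFA, lay above all non-tumorigenic values in each tumorigenic line but did not pass. It was at 8.25, 7.21 and 6.96 in UWKOS1, UWKOS3 and UWKOS7, and at 6.64, 6.35 and 6.12 in UWKOS2, UWKOS6 and UWKOS8. The group means were 7.47 ± 0.68 (SD, n = 3) and 6.37 ± 0.26 (SD, n = 3). UWKOS1 was highest, and the gap between the groups, from UWKOS2 to UWKOS7, was narrow. The difference was 1.11 (95% interval 0.25 to 1.97, limma adjusted p = 0.0905), and over the alternatives the adjusted p ran from 0.0504 to 0.65. Without UWKOS1 the difference was 0.72 (limma adjusted p = 0.112). Groups that do not overlap were seen in 38.4% of all tested genes, 21.7% with the tumorigenic lines above and 16.6% below. Among the 8 tested members there were 3, namely KDR above, and VEGFB and PDGFB below.

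Levels of endothelial genes beside KDR were as follows. Of 16 other endothelial markers 14 were on the array, 9 of them reached the filter and 0 passed. Their mean log2 value per line was 6.20 to 6.54 in the tumorigenic lines and 6.58 to 6.62 in the others. ENG, an endothelial co-receptor of TGF-beta, was at 3.36 in UWKOS1 and at 6.66 to 8.47 elsewhere, and had the lowest difference of the list (-2.30, limma adjusted p = 0.18). ERG, also on the list, was at 5.92 to 7.22 in the tumorigenic lines and at 7.87 to 8.12 in the others. Its difference of -1.27 had the smallest adjusted p of these markers (limma adjusted p = 0.0645). Most markers of the list were lower on average in the tumorigenic lines, but FLT1 (1.01), PECAM1 (0.84), EGFL7 (0.28) and VWF (0.05) were higher. CDH5, the cadherin of endothelial junctions, was at 7.34 to 7.72 in all 6 lines. The vessel markers PECAM1, VWF, EMCN, ESAM and TEK averaged below the filter. In RNA from whole cultures, fewer cells of a type and less RNA per cell cannot be told apart, and the part of such cells in the level of KDR was not tested.

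VEGFA, the ligand of KDR and FLT1 and a gene induced by low oxygen, differed more between lines than between groups. It was at 9.77, 9.85 and 11.81 in the tumorigenic lines and at 11.19, 11.01 and 10.33 in the non-tumorigenic lines. UWKOS7 held the highest value and UWKOS1 and UWKOS3 the lowest ones, so the tumorigenic group enclosed the other. The difference was -0.37 (95% interval -1.76 to 1.03, limma adjusted p = 0.701), and it ran from -1.04 without UWKOS7 to -0.014 without UWKOS1 (limma adjusted p = 0.0714 and 0.991). Its other probe set was also highest in UWKOS7, at 8.29 against 5.85 to 6.76 elsewhere, and differed by 0.54 in the opposite direction (limma adjusted p = 0.594). The sign of the VEGFA difference therefore depends on the probe set.

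VEGFC had the widest range of the members, 5.80 log2 units. It was at 11.33 in UWKOS7 and 8.57 in UWKOS1 but at 5.53 in UWKOS3. In the non-tumorigenic group it was at 10.28 in UWKOS2 and 10.40 in UWKOS6 but at 5.86 in UWKOS8. Each group thus held 1 line under the filter value and lines far above it. The difference of -0.37 had a 95% interval from -4.61 to 3.87 (limma adjusted p = 0.904), so a large change either way lies within it, and it was 0.34, 1.10 and 0.41 without UWKOS2, UWKOS3 or UWKOS6.

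PDGFRA, the receptor for PDGFA and PDGFC, varied most within the tumorigenic group. It was at 8.83 in UWKOS1, 10.15 in UWKOS3 and 6.40 in UWKOS7, and at 7.06, 7.89 and 8.10 in UWKOS2, UWKOS6 and UWKOS8. The highest and the lowest value of the 6 lines were both tumorigenic. The difference was 0.78 (95% interval -1.40 to 2.96, limma adjusted p = 0.597), and it was -0.069 without UWKOS3 and 1.81 without UWKOS7 (limma adjusted p = 0.96 and 0.0657). UWKOS3, the line with the most PDGFRA, had the least VEGFC, and UWKOS7 the reverse.

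In UWKOS3 the neighbours of PDGFRA along the chromosome were high as well. KIT, another receptor tyrosine kinase, and KDR follow PDGFRA in the gene order of the RefSeq table. Among the 10 tested genes on each side of PDGFRA, a window chosen after the values were seen, 13 of 21 with PDGFRA were highest in UWKOS3, against 20.6% of all tested genes. UWKOS3 was lowest for 17.0% of all tested genes. The ends of a stretch within it, of 8 tested genes from SCFD2 to CLOCK, were also set after the values were seen. Its count is therefore only a description: 7 of the 8, with PDGFRA among them, were highest in UWKOS3, by 1.11 to 2.62 over the next line. CLOCK, a circadian transcription factor, was at 9.98 in UWKOS3 and at 6.04 to 7.51 in the other 5 lines. FIP1L1, a factor of mRNA polyadenylation known in human leukaemia as a fusion partner of PDGFRA, was at 12.20 in UWKOS3 and at 8.69 to 10.33 elsewhere.

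SRD5A3, an enzyme of dolichol synthesis, was at 11.52 in UWKOS3 and at most 8.90 elsewhere, and SCFD2 was at 10.98 and at most 8.83. The exception in the stretch was KDR, at 7.21 in UWKOS3 and highest in UWKOS1. KIT lay below the filter, at 4.88 to 5.49 in the 6 lines. Just past CLOCK the order turned: EXOC1, a subunit of the exocyst, was at 6.98 in UWKOS3 and at 8.30 to 8.79 elsewhere, and of the 6 tested genes after CLOCK UWKOS3 was lowest for 3 and highest for 1. On the other side the change was less sharp, with UWKOS3 highest for 5 of the 7 tested genes before SCFD2. DNA was not measured in these files, and the cause of the shared high values was not tested. PDGFRA values in the other 5 lines spanned 2.43 units, so the gene also varied without UWKOS3. Between the groups none of the 8 genes of the stretch passed. The tumorigenic lines all lay above the others for FIP1L1, CHIC2, KDR, TMEM165 and CLOCK, as for 21.7% of all tested genes. For SCFD2, PDGFRA and SRD5A3 the groups overlapped. UWKOS1 was the line next to UWKOS3 for PDGFRA, FIP1L1, CHIC2, SRD5A3, TMEM165 and CLOCK, and UWKOS6 was next for SCFD2.

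**Figure D2:**
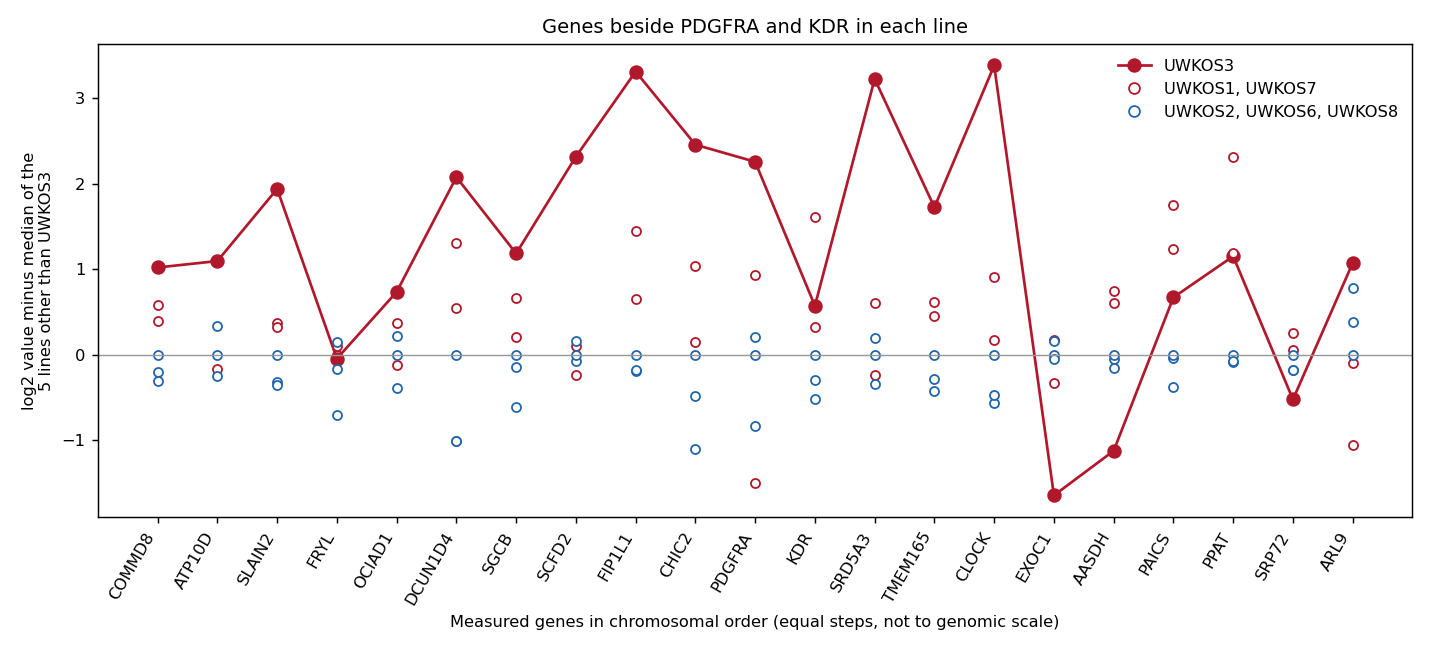
Log2 value of each line minus the median of the 5 lines other than UWKOS3 (vertical axis), for PDGFRA and the 10 tested genes on each side in chromosomal order at equal steps (horizontal axis). Filled red points joined by a line are UWKOS3, open points the other lines. UWKOS3 lies above the other lines from SCFD2 to CLOCK except at KDR, and below them at EXOC1, AASDH and SRP72. Outside that stretch it also lies above them at COMMD8, SLAIN2, OCIAD1, DCUN1D4, SGCB and ARL9.

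PDGFRB, the receptor for PDGFB and PDGFD and a marker of pericytes, had a pair of probe sets that both averaged 5.92 over the lines, below the filter. The one that stands for the gene was at 5.87, 5.65 and 5.76 in the tumorigenic lines and at 5.93, 6.22 and 6.06 in the others. It differed by -0.31 (95% interval -0.62 to 0.00247, limma adjusted p = 0.222 with no filter). The other gave 4.99, 5.49 and 4.90 against 6.48, 6.99 and 6.62, a gap of almost 1 unit between the groups. With no filter it passed, and fell by 1.57 (SE 0.22, limma adjusted p = 0.0249), or 2.97-fold. With no filter 5.05% of 42924 probe sets passed, and 1.99% passed in the lower direction, while 29.2% did not overlap between the groups.

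That probe set also passed without UWKOS2, UWKOS3 or UWKOS7 and not without UWKOS1, UWKOS6 or UWKOS8 (limma adjusted p = 0.0565, 0.0939 and 0.0754). It was at 6.48 in UWKOS2, the non-tumorigenic line with a low transcript-end ratio. The mean of the probe sets differed by -0.94 (limma adjusted p = 0.0254 with no filter). All values of the tumorigenic lines lay under 6.07, so the size of the difference is uncertain. Of 12 other pericyte and smooth muscle markers, all on the array, 6 reached the filter and 0 passed. Their mean log2 value per line was 5.65 to 7.17 in the tumorigenic and 7.37 to 7.73 in the non-tumorigenic lines, and that of 11 fibroblast markers was 9.79 to 10.93 and 11.93 to 12.15. RGS5, ABCC9, KCNJ8 and NOTCH3, which mark pericytes, averaged below the filter. The means of these lists were lower in the tumorigenic lines, as PDGFRB and VEGFB were. All 11 fibroblast markers, which leave out PDGFRA, were lower on average, from -0.39 (THY1) to -3.93 (POSTN), and 0 passed. Not all pericyte and smooth muscle markers followed. ACTA2 (-4.91) and TAGLN (-2.86) had the largest differences of the pericyte and smooth muscle list. DES (0.40) and KCNJ8 (0.13) were higher on average and the others of that list lower. RGS5, ABCC9, KCNJ8 and NOTCH3 overlapped between the groups. The part of these lists in either difference was not tested.

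The PDGF ligands showed no difference that passed. PDGFA was at 6.07, 6.52 and 7.57 in the tumorigenic lines and at 6.38, 6.82 and 6.64 in the others, with UWKOS7 highest and UWKOS1 lowest. Its difference was 0.11 (95% interval -0.82 to 1.04, limma adjusted p = 0.872). PDGFC was at 7.18, 6.80 and 5.80 in the tumorigenic lines and at 7.20, 6.59 and 6.16 in the others. The groups overlapped over nearly their whole range, with a difference of -0.06 (95% interval -1.08 to 0.96, limma adjusted p = 0.94).

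PDGFB was flat, at 6.02 to 6.04 in the tumorigenic lines and at 6.10 to 6.25 in the others. The groups did not overlap, but the difference was only -0.14 (95% interval -0.48 to 0.20, limma adjusted p = 0.543) at a level 0.03 above the filter. Centring on hybridization controls turned it to 0.033, and the other probe set, below the filter, differed by -0.0012. PDGFD, whose latent form is cut by urokinase, was below the filter in every line, at 4.17 to 5.09, and differed by -0.0061 (95% interval -0.66 to 0.65, limma adjusted p = 0.992 with no filter). The intervals of the 4 ligands reach from 0.20 to 1.08 log2 units on 1 or the other side of 0, so changes of that size lie within them.

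**Figure D3:**
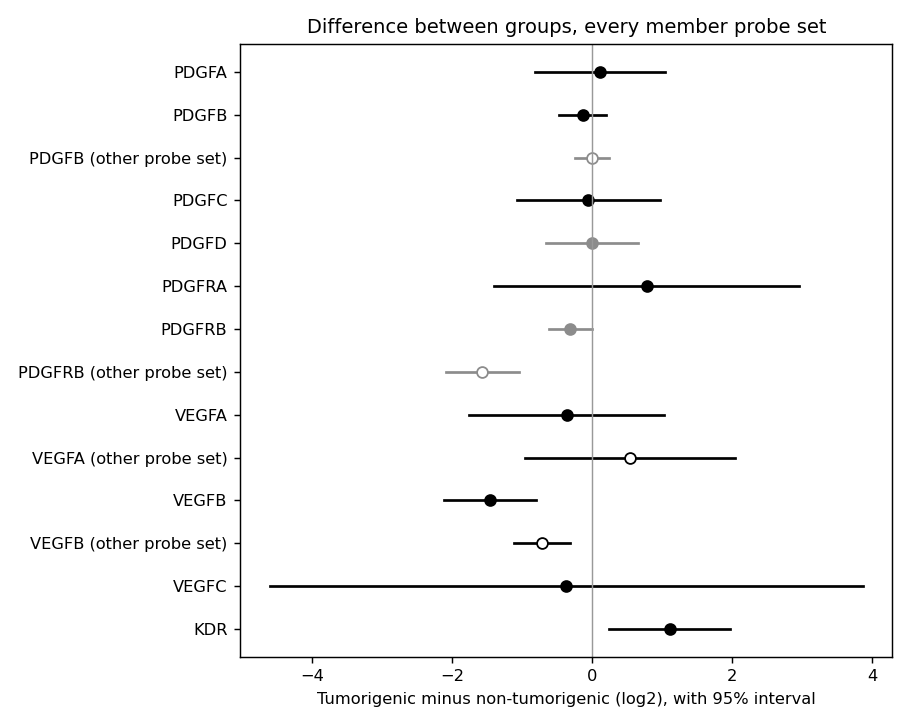
Tumorigenic minus non-tumorigenic difference (log2, horizontal axis) of all 14 probe sets of the 10 genes (rows), with 95% intervals from limma. Filled circles are the probe set that stands for the gene and open circles the other one, and grey marks probe sets below the filter, taken from the fit with no filter. The intervals of VEGFB, KDR and the other PDGFRB probe set do not reach 0, while that of VEGFC spans from -4.61 to 3.87.

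Across the 10 genes, the highest values were spread over lines of both groups, while most of the lowest lay in tumorigenic lines. UWKOS7 held the highest value of PDGFA, VEGFA and VEGFC and the lowest of PDGFC, PDGFRA and VEGFB. UWKOS6 was highest for PDGFB, PDGFRB and VEGFB. UWKOS2 was highest for PDGFC and PDGFD, UWKOS3 for PDGFRA and UWKOS1 for KDR. The lowest values of PDGFA and VEGFA were in UWKOS1, and those of PDGFB, PDGFRB and VEGFC in UWKOS3. UWKOS8 was lowest for PDGFD and KDR and highest for 0 members, and UWKOS2 and UWKOS6 were each lowest for 0. Of the 10 members 7 were lower and 3 higher on average in the tumorigenic lines, and the median difference of the 8 at or above the filter was -0.10, beside 0.03 for all 9145 tested genes. Of those 9145 genes, 4338 were lower and 4807 higher on average. PDGFC (-0.06) and PDGFD (-0.0061) count among the 7 though near 0.

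Of the other receptors, co-receptors and ligands of the system, 7 of 9 tested were lower on average in the tumorigenic lines and 2 fell. Over all 9145 tested genes 4338 were lower on average, and 4.63% fell. Of 14 listed, 13 were on the array and 9 reached the filter, of which 0 rose, 2 fell and 7 missed the threshold. Their median difference was -0.92. CCBE1, a secreted protein needed to activate VEGFC, was at 6.72, 5.92 and 6.03 in UWKOS1, UWKOS3 and UWKOS7 and at 7.99, 8.24 and 8.38 in UWKOS2, UWKOS6 and UWKOS8. The groups were more than 1 unit apart, and it fell by 1.98 (SE 0.25, limma adjusted p = 0.0153). A second probe set of CCBE1, at -0.38, missed the threshold (limma adjusted p = 0.186), and by the mean of both CCBE1 fell by 1.18 (limma adjusted p = 0.0189). SEMA3C, a secreted semaphorin that binds neuropilins, fell by 1.09 (SE 0.21, limma adjusted p = 0.0298).

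PGF, placental growth factor and a ligand of FLT1 like VEGFB, was at 6.20 to 6.28 in the tumorigenic lines and at 6.52, 7.77 and 7.42 in the others. It was low in UWKOS2 as well, and its difference of -1.01 did not pass (limma adjusted p = 0.0895). FLT1 itself was at 10.03, 8.74 and 9.94 in the tumorigenic lines and at 7.81, 8.98 and 8.88 in the others. Only UWKOS3 fell within the range of the other group, and the difference was 1.01 (95% interval -0.09 to 2.12, limma adjusted p = 0.186). The other 2 probe sets of FLT1 differed by 0.87 and 1.18 in the same direction without passing. FLT4, the VEGFC receptor, differed by -0.36 (limma adjusted p = 0.171). A second FLT4 probe set differed by -0.074 (limma adjusted p = 0.781), and a further one, below the filter, by 0.071.

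NRP2, a co-receptor for VEGFC, was at 9.70, 8.93 and 11.16 in the tumorigenic and at 11.32, 10.59 and 10.63 in the non-tumorigenic lines, and differed by -0.92 (limma adjusted p = 0.316). PDGFRL, a PDGF receptor-like protein, differed by -1.97 (95% interval -3.63 to -0.30, limma adjusted p = 0.109) and SEMA3F by -0.39 (limma adjusted p = 0.429). ESM1, a proteoglycan secreted by endothelial and some tumour cells, was at 11.20 in UWKOS1, 8.60 in UWKOS8 and 6.72 in UWKOS6, and at 5.31 to 5.36 in the other 3 lines. Below the filter lay NRP1 (a difference of 0.61), PLXND1 (-0.17), SEMA3A (0.69) and VEGFD (0.44), none past the threshold with no filter.

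Among 11 tested proteins that release, activate or bind these ligands, 1 rose, 2 fell and 8 missed the threshold (median difference -0.19). PLAU, the urokinase, was the one that rose, by 2.02 (SE 0.42, limma adjusted p = 0.0333). LRP1, an endocytic receptor that binds PDGFRB, fell by 2.72 (SE 0.41, limma adjusted p = 0.0187), from 9.21 to 9.82 in the non-tumorigenic to 6.18 to 7.71 in the tumorigenic lines. CTSD, a lysosomal protease, fell by 1.21 (SE 0.23, limma adjusted p = 0.0278), but by the mean of its probe sets the difference was -0.76 and missed the threshold (limma adjusted p = 0.134). SPARC, a matrix protein that binds PDGF, differed by -0.88 (limma adjusted p = 0.0757).

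Of 27 tested signal proteins downstream of the receptors, 1 rose, 1 fell and 25 missed the threshold (median difference 0.11). PIK3R1, the regulatory subunit through which receptors recruit PI3-kinase, was at 6.39, 7.13 and 6.98 in the tumorigenic lines and at 8.16, 9.86 and 9.96 in the others. It fell by 2.50 (SE 0.51, limma adjusted p = 0.0325), and UWKOS2 was the nearest of the non-tumorigenic lines. PTPN2, a tyrosine phosphatase, rose by 1.32 (SE 0.29, limma adjusted p = 0.0392). The kinase YES1 differed by 0.62 and STAT3 by -1.03 (limma adjusted p = 0.0607 and 0.0825).

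The hypoxia genes, many of which respond with VEGFA to low oxygen, showed no common direction, with 15 lower and 11 higher on average. Of 26 tested, 1 rose, 1 fell and 24 missed the threshold (median difference -0.09). EGLN3, a prolyl hydroxylase that marks HIF proteins for decay, rose by 2.18 (SE 0.54, limma adjusted p = 0.0496), and ADM, the peptide adrenomedullin, fell by 1.03 (SE 0.19, limma adjusted p = 0.028). HIF1A differed by -0.50 and its brake VHL by 0.90 (limma adjusted p = 0.0679 and 0.0845).

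Of 16 other tested regulators of vessel growth, 1 rose, 4 fell and 11 missed the threshold (median difference -0.94). The thrombospondins THBS2 and THBS1, known as inhibitors of vessel growth, fell by 6.24 (SE 1.10, limma adjusted p = 0.024) and by 1.89 (SE 0.41, limma adjusted p = 0.0381). The growth factor FGF2 fell by 2.49 and the angiopoietin-like ANGPTL2 by 1.18 (limma adjusted p = 0.0408 and 0.0405), the latter by 1.90 with the mean of its probe sets. CXCL8, a chemokine that also promotes vessel growth, rose by 3.48 (limma adjusted p = 0.0435). The members that fell thus include both inhibitors and a promoter of vessel growth. Over all genes 12.1% passed, 7.50% higher and 4.63% lower. Of the 14 genes that passed in these 5 lists, 0 did so when UWKOS6 was left out (12 of all 9145 genes then passed), 2 without UWKOS8, 4 without UWKOS2 or UWKOS3, 5 without UWKOS1 and 10 without UWKOS7. Over all 9145 genes, 12 to 1313 passed with 1 line left out. Adjusted for either transcript-end ratio, 0 of the 14 did, where only 10 (GAPDH ratio) and 12 (mean ratio) of all 9145 genes passed. The mean levels of the fibroblast and pericyte lists given above were lower in the tumorigenic lines as well, and their part in these differences was not tested.

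**Figure D4:**
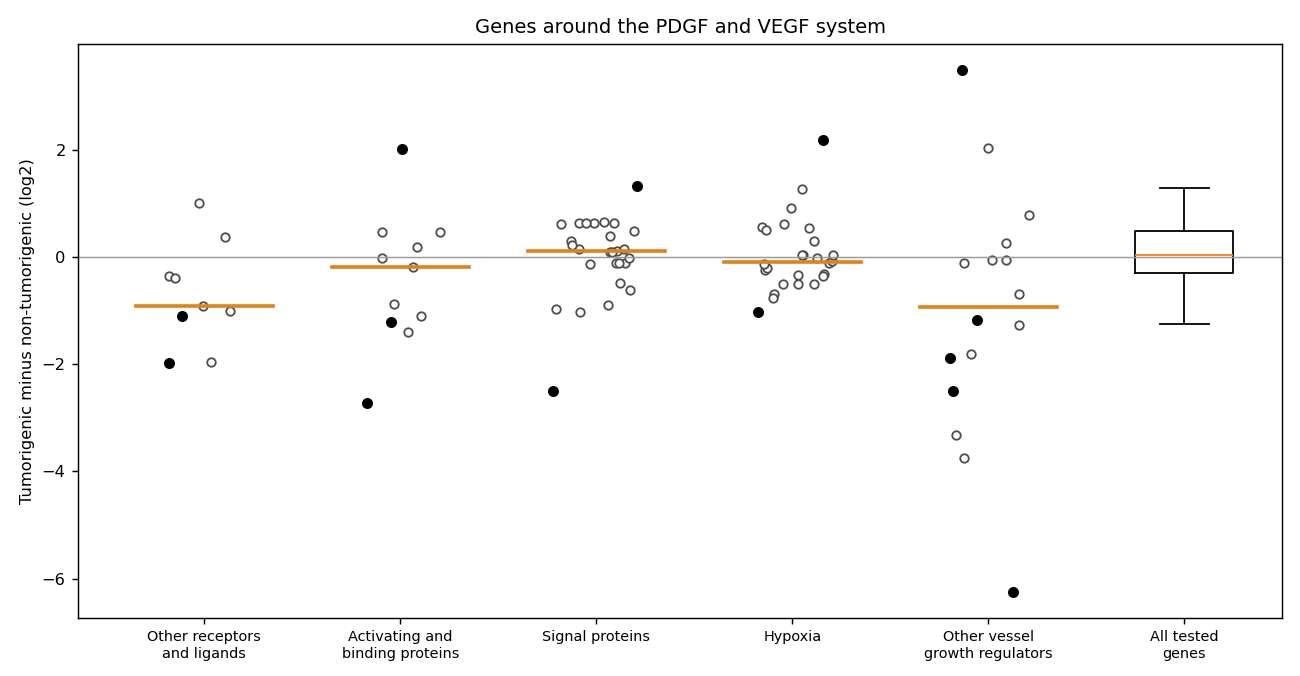
Tumorigenic minus non-tumorigenic difference (log2, vertical axis) of each tested gene in the 5 lists around the PDGF and VEGF system, with list medians as orange bars. Filled points passed at the gene level, open points did not, and the box at the right shows the median, quartiles and 5th to 95th percentiles of all 9145 tested genes. The medians of the other receptors and ligands (-0.92) and of the other vessel growth regulators (-0.94) are the lowest of the 5.

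The genes most like each variable member were found by Pearson correlation over the 6 lines among 3092 other tested genes with an SD of at least 0.5. With 6 points that share their arrays, high values are common and are given as a description. SPTAN1, a spectrin chain, was nearest to VEGFB (r = 0.996), followed by the complement protease C1R (0.991) and FAM189B (0.990), and 163 genes exceeded 0.9. For KDR they were the nuclear pore protein NUP58 (0.994), BPNT1 (0.989) and TMEM192 (0.986), with 184 above 0.9. VEGFA was most like the non-muscle myosin MYH9 (0.994), ASTE1 (0.993) and ARID5B (0.984), with 29 above 0.9.

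For VEGFC, where only 6 genes exceeded 0.9, the nearest were the sugar transporter SLC2A6 (0.985), PM20D2 (0.961) and F3, the tissue factor that starts clotting (0.953). F3 was at 12.45 in UWKOS7, 12.07 in UWKOS2, 11.11 in UWKOS6 and 10.95 in UWKOS1, and at 8.98 in UWKOS3 and 9.76 in UWKOS8. The lines low in VEGFC were the lowest in F3 also, which follows from the choice of F3 by its correlation with VEGFC in these lines. PDGFRA was most like USP38 (0.980), DR1 (0.977) and NMRK1 (0.965), with 31 above 0.9, and none of these 3 belongs to its chromosomal window.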

How the data were processed

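Total RNA was extracted with Trizol, and biotin-labelled cRNA from 10 µg was hybridised to Affymetrix canine arrays, 1 per line, per the labels' protocols. The submitters' processing notes name MAS5 and no other tool. The authors deposited 1 table of log2 values: raised to base 2 its maxima fit a 16-bit scanner. Its near-equal quantiles are unusual for MAS5, so the summary method, background correction and centring are not settled here. These values entered the fits unaltered, 0 columns went unused, and detection calls were not analysed here.

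Of 43035 probe sets, 111 controls were set aside. Of the other 42924, 29254 had 1 symbol, 439 several and 13231 none in the annotation table. Gene identifiers gave 27680 of the symbols their RefSeq name (assembly UU_Cfam_GSD_1.0), and 1574 stayed as listed. The 21462 probe sets with a mean of at least 6.07 were tested with limma 3.58.1 in R 4.3.3 (lmFit, eBayes, no covariate). Values of p for the 10 members are adjusted over these probe sets, or over all 42924 where no filter is named. Those of list genes come from a fit of 9145 genes, each by its brightest tested probe set, as do counts of genes. The fit was tested on simulated data.

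The members, the 5 lists and the marker lists were chosen with earlier results of these data known. The text names all members, list genes that passed (at least 4 a list, by smallest p), the whole list of other receptors and ligands, and, for each member spanning at least 2 log2 units, the 3 genes of highest correlation. Genes of the chromosomal window and marker genes were chosen after their values were seen. Alternatives were filters, scalings, variance models, the mean of probe sets, lines left out and transcript-end covariates. Figures were drawn with matplotlib 3.10.9.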

Additional observations from a re-analysis of the deposited data

How the results depend on the processing

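With 1 array per line and 3 lines per group, only large differences could pass, and dim probe sets have no known detection. No paired analysis was possible because replicate numbers only follow accession order. PDGFA, PDGFB, PDGFC, PDGFRA and KDR lay below the upper-quartile filter and gave no value there. Centring on hybridization controls moved the median of all tested genes from 0.033 to 0.20. It turned PDGFB to 0.033, PDGFC to 0.11 and PDGFD to 0.17. Quantile normalization turned PDGFD to 0.049. Array weights turned PDGFA to -0.016, PDGFC to 0.10 and PDGFD to 0.058, and called 3895 probe sets in place of 2580. The mean of probe sets gave VEGFA 0.085 and PDGFRB -0.94, which then passed, and the other probe sets gave VEGFA 0.54 and PDGFRB -1.57, which then passed. With no filter, 8 of the 14 list genes passed. Without UWKOS6 and UWKOS8, VEGFB differed by -1.16 and 0 members, 0 list genes, 9 probe sets and 1 gene passed. With the GAPDH ratio as covariate VEGFB differed by -1.45 and 0 members, 0 list genes, 27 probe sets and 10 genes passed, and with the mean ratio by -1.35, with 0, 0, 28 and 12. Without 1 line, the differences ran from -0.32 to 0.43 for PDGFA, -0.35 to 0.34 for PDGFC, -0.20 to 0.26 for PDGFD, -0.069 to 1.81 for PDGFRA, -1.04 to -0.014 for VEGFA, 0.72 to 1.36 for KDR, -0.18 to -0.10 for PDGFB, -0.38 to -0.24 for PDGFRB, -1.86 to 1.10 for VEGFC and -1.67 to -1.25 for VEGFB. Counts without 1 line ran from 0 to 1 members, 52 to 3169 probe sets, 12 to 1313 genes and 0 to 15 list genes. VEGFB passed in 13 of 19 alternatives, and its second probe set in 6 of 17, with none of these among the 6 fits that left out 1 line. The causes were not tested.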
